A study of Mus musculus with 102 samples.

Results

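The medial preoptic area (MPA) of the adult mouse was compared with the tuberal hypothalamus, represented by the dorsomedial nucleus (DM), the ventromedial nucleus (VMH) and the arcuate nucleus (Arc). The members of this comparison were all arrays whose titles carry these 4 region names, 8 of the 102 arrays of the series, of which 2 were MPA and 6 tuberal. All animals were male Balb/c mice aged 7 to 8 weeks, with no genetic or drug treatment, that had lived under 12 h of light and 12 h of darkness and were sampled under that cycle or in constant darkness. Bilateral punches taken with a 0.5-mm needle from slices 0.5 mm thick were collected at 6 time points 4 h apart, and the RNA of all time points and of many mice was pooled before hybridisation to an Affymetrix mouse genome array, so that no array belongs to 1 animal or 1 time of day. The 2 arrays of a region came from independent samplings, and all p-values measure the spread between such pools. Values are log2 expression values, so that a difference of 1 is a doubling, and the 45037 probe sets that are not controls were all tested.

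The MPA lies at the front of the hypothalamus and is known for the control of body temperature, sleep, sexual behaviour and care of the young, whereas the tuberal nuclei behind it are known for the control of feeding, growth and hormone release. The third ventricle runs along the midline of both, and its wall is covered by ependymal cells. These carry motile cilia, whose core, the axoneme, holds microtubule doublets moved by dynein arms and coordinated by radial spokes and a central pair, and the genes for these parts are switched on together by the forkhead factor Foxj1 and the RFX factors. Lower in the ventricle wall, tanycytes take the place of most ciliated cells. For this reason transcripts of the ependyma were described apart from those of neurons. In pooled tissue, fewer cells of a type and less RNA per cell cannot be told apart.

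Each of the 8 arrays correlated best with the other array of its own region (r of 0.9939 to 0.9952 over all probe sets), and the 8 medians lay between 7.34 and 7.43. The labels were checked against genes known for each nucleus. In VMH, *Fezf1* and *Nr5a1*, both regulators of VMH neurons, stood at 9.49 and 8.49 and exceeded their levels in the other 3 regions (5.36 to 5.71 and 6.50 to 6.76). In Arc, the peptide precursors *Pomc*, *Npy* and *Ghrh* stood at 12.98, 13.44 and 9.79, their highest levels of the 4 regions. In DM, the peptides *Npvf* (10.52) and *Grp* (9.69) were highest of the 4, but so were *Hcrt* and *Pmch*, the precursors of orexin and melanin-concentrating hormone, which are known from neurons of the lateral hypothalamus. They stood at 11.10 and 13.97 in DM and at only 7.54 and 7.68 in the region labelled lateral hypothalamus, and *Pmch* was at 12.76 in VMH as well. According to the study's sampling record, MPA and VMH were sampled in the same period, the first arrays on the same days, whereas DM and Arc each came from another period, so that region and period cannot be told apart for those regions and the contrast of MPA with VMH is the within-period value.

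Across all probe sets, 3194 (7.09%) differed between MPA and the mean of the 3 tuberal regions at an adjusted p under 0.05, 1870 (4.15%) higher and 1324 (2.94%) lower in MPA. The median difference over all probe sets was -0.01. The tuberal regions also differ among themselves, and 866 probe sets were higher in MPA than in 1 tuberal region and lower than in another, so a stricter class was counted, here termed separated: a called difference of at least 1 on the log2 scale with both MPA arrays beyond all 6 tuberal arrays. It held 219 probe sets higher in MPA (0.486%) and 45 lower (0.0999%). Of these, 209 of the 219 were called higher against each of DM, VMH and Arc, and 19 of the 45 were called lower against each, which 1.19% and 0.169% of all probe sets were. When the 6 tuberal arrays were treated as 1 group, so that the spread between tuberal regions entered the error, 223 probe sets were called higher and 11 lower, with 144 and 1 of them separated. Without the second MPA array, 992 were called higher and 408 lower, and without the first, 1209 and 807.

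Separated probe sets were split by their behaviour in regions outside the comparison. An ependymal score, the mean of 67 listed ciliary and ependymal genes centred over regions, was computed for each of the 44 other regions, and the ependymal group was defined as the probe sets of listed genes and those whose regional means followed this score with r of at least 0.6 over these 44 regions. Of the 920 probe sets in this group, 344 (37.4%, against 4.15% of all) were called higher in MPA, and 132 were separated and higher, which is 60.3% of the 219, from 107 named genes. Of the other 44117 probe sets, 1526 (3.46%) were called higher, 87 were separated and higher (63 named genes) and 43 were separated and lower (33 named genes). Only 2 separated probe sets of the ependymal group were lower in MPA, *Pmch* (r = 0.61) and the adhesion gene *Amigo2* (r = 0.70), so the group is defined by its regional pattern and does not hold ependymal transcripts alone. Nor is the remainder free of them, since the ciliary gene *Cfap69* had 1 separated probe set outside the group (r = 0.54) and another within it (r = 0.68). Against VMH alone, the within-period contrast, 131 of the 132 ependymal probe sets met the definition. So did 72 of the 87 others that were higher and 18 of the 43 that were lower. The VMH arrays were among the 6 by which these sets had been chosen, so these counts describe the sets and are no independent test. With the 6 tuberal arrays as 1 group, 152 probe sets of the ependymal group were called higher and 114 were separated, compared with 30 separated and higher and 1 separated and lower outside it.

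**Figure D1:**
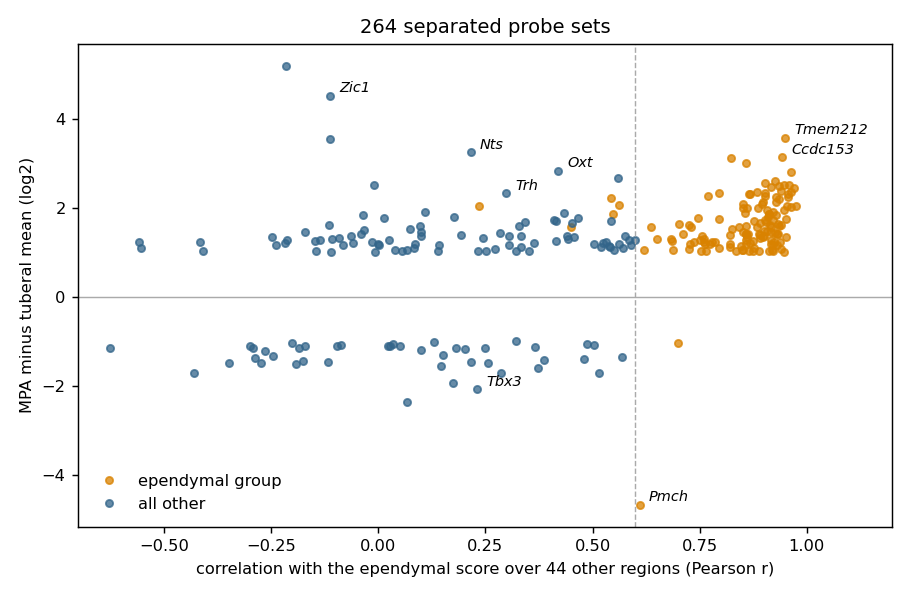
Difference between MPA and the mean of DM, VMH and Arc (log2, vertical axis) of each of the 264 separated probe sets against its correlation with the ependymal score over the 44 other regions (horizontal axis), with the ependymal group in orange and all others in blue. The 132 higher probe sets of the ependymal group crowd at the right above 0, the few orange points left of the dashed line at 0.6 are listed genes, whereas *Zic1*, *Nts*, *Oxt* and *Trh* lie to the left of that line. The group's only low points are *Pmch* and *Amigo2*.

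The ependymal score placed MPA first of the 48 regions (1.29 and 1.20 on its 2 arrays). It was followed by the dorsal subparaventricular zone (mean 0.99), the ventral subparaventricular zone (0.77), the paraventricular nucleus (0.65) and the median eminence (0.59). Arc stood at 0.35, and DM and VMH stood at 0.05 and 0.03, close to the mean of all regions, which is 0 by construction. The 3 tuberal regions were not alike in this respect, since both Arc arrays lay above all DM and VMH arrays. The dorsal subparaventricular arrays also held the VMH regulator *Nr5a1* (9.22) above its level in VMH. *Fezf1* (9.07) stood there somewhat below its VMH level (9.49). The study lists *Nr5a1* among marker candidates of this zone.

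**Figure D2:**
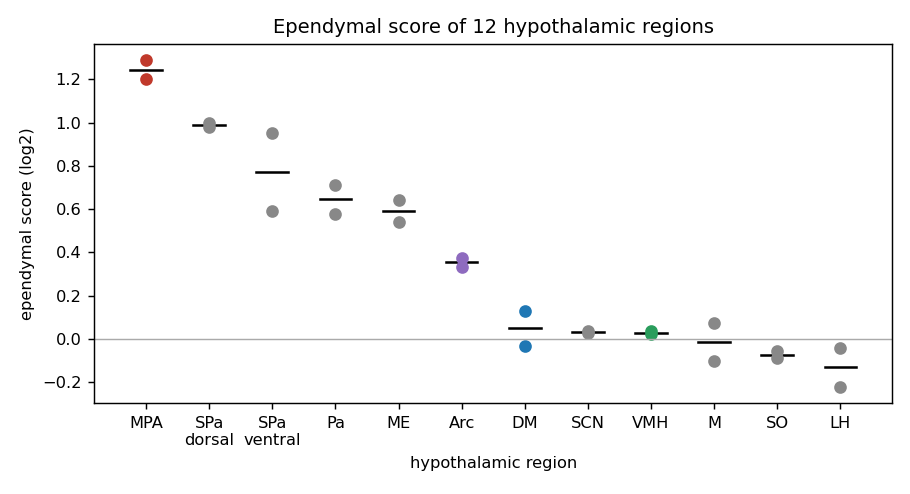
Ependymal score (log2, mean over 67 genes after centring each on its mean over 48 regions) of the 12 hypothalamic regions, with points for the 2 arrays and a bar for their mean. The 2 MPA arrays (red) lie at 1.29 and 1.20, above every other array shown, and the 2 Arc arrays (purple) lie above those of DM (blue) and VMH (green).

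Of the 80 genes listed for ciliated ependyma, 67 were measured by a probe set that names 1 gene, and 54 of them were higher and none lower in MPA at an adjusted p under 0.05 by limma (of all probe sets, 4.15% were higher and 2.94% lower). The median difference of the 67 was 0.99, against -0.01 over all probe sets, and 32 were separated. Against the single regions, 60 were higher than in DM (8.47% of all probe sets), 52 than in VMH (6.51%) and 47 than in Arc (5.49%), with medians of 1.07, 1.04 and 0.74, and none was lower than in any of them. For 52 of the 67 both MPA arrays lay above all 6 tuberal arrays, as they did for 4.63% of all probe sets (below them in 3.74%), and for 37 MPA held the highest mean of all 48 regions. Of the 54 that were higher, 45 stood above the dorsal subparaventricular zone, the region next in score.

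The genes were described by their place in the cilium, beginning with the regulators, of which 4 of 6 were higher. *Foxj1*, the forkhead factor that switches on the programme of motile cilia, read 7.73 and 7.77 on the MPA arrays, 6.43 and 6.04 on the DM arrays, 5.97 and 5.93 on the VMH arrays and 6.38 and 6.33 on the Arc arrays. Both MPA arrays lay more than 1 above the highest tuberal array, and the difference was 1.57 ± 0.11 (SE, adjusted p = 3.07e-17), a fold change of 2.97. *Myb*, a factor of the early multiciliated cell, differed more (2.54 ± 0.11, with 8.14 and 8.22 in MPA against 5.36 to 6.13 on the 6 tuberal arrays). The RFX factors *Rfx2* and *Rfx4* differed by only 0.49 and 0.55, and *Rfx3* (0.25) and *Ccno* (-0.02) were not called.

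Genes of the RFX-regulated programme are known to carry a pair of inverted half-sites, the X-box, near their start, and the sequences that follow show where such letters stand in 6 ciliary genes that were higher in MPA on at least 1 probe set. In RefSeq promoter windows of 300 bases (build GRCm38.p6, 250 before and 50 after the gene start), the half-site GTTGCC, searched on both strands, stood in 26 of the 63 windows of the 54 measured ependymal genes that have one (41.3%), and in 12.5% of all 32851 windows. GTTACC stood in 22.2% against 7.21%, the longer X-box (GTTNCC, any 2 bases, then GNAAC), whose matches overlap those of the half-sites, in 14.3% against 0.673%, and the forkhead letters GTAAACA in 6.35% against 3.65%. The windows of listed genes called higher in MPA held the same letters at like shares. GTTGCC stood in 20 of 53 (37.7%), GTTACC in 24.5%, the longer X-box in 13.2% and GTAAACA in 7.55%. A match is a run of letters and not a measured binding site, and a link to the difference in level was not tested. The stretches lie before the gene start and are written in the gene's direction, with GTTGCC or its reverse GGCAAC in capitals.
Ccdc153, chr9:44240485-44240570, plus strand: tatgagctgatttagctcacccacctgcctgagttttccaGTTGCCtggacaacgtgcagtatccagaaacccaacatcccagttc
Mlf1, chr3:67373952-67374037, plus strand: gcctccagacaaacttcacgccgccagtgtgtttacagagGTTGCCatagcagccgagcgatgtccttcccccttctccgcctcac
Enkur, chr2:21205366-21205439, minus strand: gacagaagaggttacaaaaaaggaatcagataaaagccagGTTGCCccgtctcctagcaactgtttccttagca
Dynlrb2, chr8:116504924-116505009, plus strand: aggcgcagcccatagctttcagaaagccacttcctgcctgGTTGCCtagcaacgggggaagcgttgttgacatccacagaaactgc
Dnaic2, chr11:114727353-114727418, plus strand: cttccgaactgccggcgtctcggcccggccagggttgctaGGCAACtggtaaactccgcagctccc
Tekt1, chr11:72361883-72361957, minus strand: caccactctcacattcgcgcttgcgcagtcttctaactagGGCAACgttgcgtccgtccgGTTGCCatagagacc

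Among the dynein arm genes, 8 of 12 were higher. *Dynlrb2*, a dynein light chain, read 10.58 and 10.45 on the MPA arrays, 8.17 and 7.52 on the DM arrays, 7.10 and 7.35 on the VMH arrays and 9.22 and 9.03 on the Arc arrays. The tuberal regions themselves were spread over more than 2 units, with Arc nearest to MPA, and the difference was 2.45 ± 0.17 (adjusted p = 1.55e-17). The inner arm component *Dnali1* read 9.98 and 8.96 in MPA against 6.69 to 7.71 on the 6 tuberal arrays (2.25 ± 0.15), and its 2 MPA arrays lay 1 unit apart. The heavy chains *Dnah12* (1.48), *Dnah6* (1.27), *Dnah9* (0.66) and *Dnah5* (0.42) were higher by less, while *Dnah7a* (0.10) was not called. For the intermediate chain *Dnaic2* the 2 probe sets disagreed, since the one with the higher mean gave -0.12 and the other 2.47 (adjusted p = 1.48e-19). Of the genes for dynein assembly and docking, 6 of 7 were higher, among them *Ccdc39* (1.08), *Zmynd10* (0.94), *Ccdc40* (0.90) and *Drc1* (0.86), and *Spag1* (0.29) was not called.

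All 9 radial spoke and central pair genes were higher, by 0.36 to 2.35. The largest difference was that of *Ak7*, an adenylate kinase of the axoneme, with 10.16 and 9.95 in MPA against 7.21 to 8.30 on the 6 tuberal arrays. The radial spoke head genes *Rsph4a* and *Rsph1* were higher by 1.94 ± 0.18 and 1.84 ± 0.13, *Rsph9* by 0.62, and the central pair genes *Spag6l*, *Spef2* and *Hydin* by 1.45, 1.33 and 0.36. *Hydin* showed how far the groups can approach each other, with 7.99 and 7.97 in MPA against 7.34 to 7.87 on the 6 tuberal arrays (adjusted p = 0.0253). Of 19 other axonemal or ciliary genes, 15 were higher. *Mlf1* read 8.07 and 8.02 on the MPA arrays, 5.39 and 5.17 on the DM arrays, 5.01 and 4.90 on the VMH arrays and 5.48 and 5.51 on the Arc arrays, a difference of 2.80 ± 0.12 and the smallest adjusted p of the list (7.21e-26). *Meig1* (2.61), *Enkur*, which names the protein enkurin (2.52), and the tektins *Tekt1* (1.91), *Tekt4* (1.04) and *Tekt2* (1.03), which are filament proteins of the doublet wall, followed. *Kif27* (0.22), *Nek5* (0.21), *Cfap53* (0.21) and *Stk36* (0.08) were not called.

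Of the 14 genes listed as ependymal markers without a place in the axoneme, 12 were higher. *Tmem212* had the largest difference of the list and read 11.36 and 11.14 on the MPA arrays, 8.69 and 7.88 on the DM arrays, 7.22 and 7.09 on the VMH arrays and 7.75 and 7.46 on the Arc arrays. The MPA arrays stood apart by more than 2 from the highest tuberal array, and the difference of 3.57 ± 0.19 (adjusted p = 8.35e-22) is a fold change of 11.9. *Ccdc153* read 10.94 and 10.60 on the MPA arrays, 8.05 and 7.67 on the DM arrays, 7.30 and 7.42 on the VMH arrays and 7.89 and 7.53 on the Arc arrays, and was higher by 3.13 ± 0.15 (adjusted p = 3.90e-23), a fold change of 8.75. The surface antigen *Cd24a* (2.06 ± 0.25), the chemoattractant *Rarres2* (1.75 ± 0.10) and *Fam183b* (1.43 ± 0.16) were higher as well, although *Fam183b* stood at 9.45 in Arc, 0.38 below MPA. *Mia* was called (1.13) with groups that overlapped, since Arc, at 9.86, lay above MPA at 9.37. *Tppp3* (0.22) and *Vwa3a* (0.22) were not called. Genes outside the list that followed the score included *Dmkn* (3.12, r = 0.82), *Nuf2* (3.01, r = 0.86), *1700094D03Rik* (2.50, r = 0.95) and *Armc3* (2.48, r = 0.93). Among these *Nuf2* is known as a protein of the kinetochore, and *Armc3* holds armadillo repeats. Of the 132 separated and higher probe sets of the ependymal group, 111 were at their highest of 48 regions in MPA, compared with 27 of the 87 outside it. Both sets had been chosen for high values in MPA, and the group for following a score on which MPA ranks first. These counts therefore describe the sets and test nothing.

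**Figure D3:**
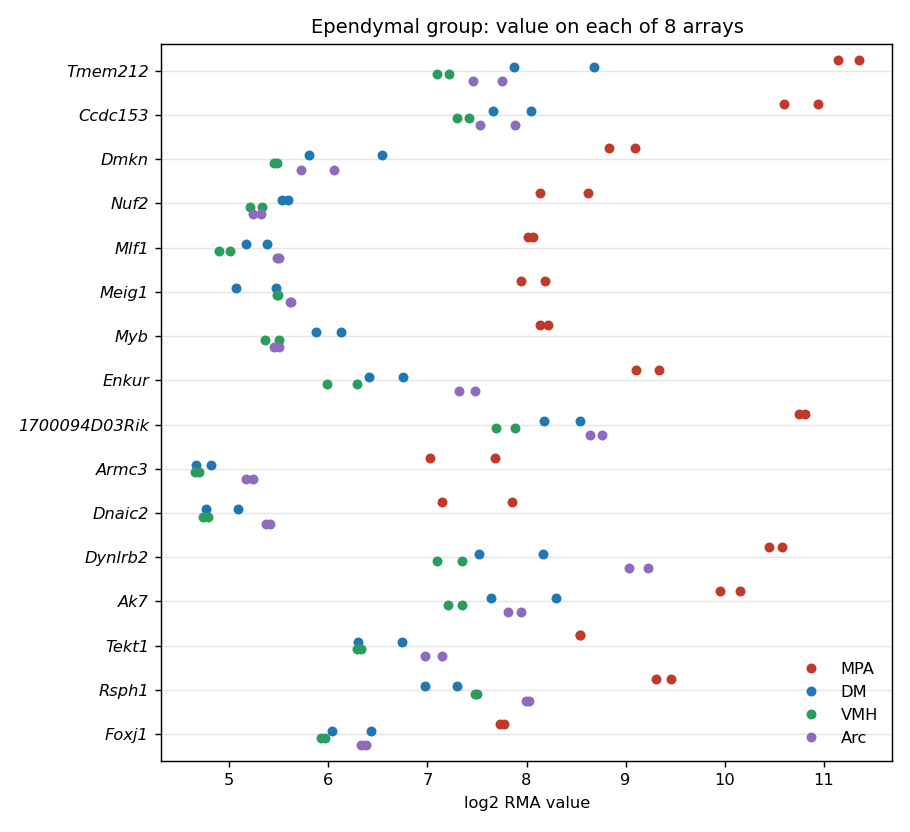
Log2 RMA value of 16 genes of the ependymal group on each of the 8 arrays, ordered by difference, with 2 points per region. In all 16 rows both MPA arrays (red, the top pair of each row) lie to the right of the 6 tuberal arrays, and in several rows, such as *Dynlrb2* and *Enkur*, the Arc arrays (purple) lie nearest to them.

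Other cells of the ventricle wall and the brain surface did not follow the same pattern. For the counts of this paragraph, 4.15% of all probe sets were higher and 2.94% lower than the tuberal mean. Of 15 tanycyte genes, 2 were higher and 7 lower in MPA (median -0.41), but this rested on Arc: 13 were lower than in Arc (5.22% of all probe sets). Against VMH 4 were higher and none lower (6.51% and 3.03% of all probe sets). Against DM 5 were higher and 2 lower (8.47% and 9.26%). *Dio2*, the deiodinase that makes active thyroid hormone in tanycytes, read 6.97 and 6.67 on the MPA arrays, 7.00 and 7.04 on the DM arrays, 7.44 and 6.96 on the VMH arrays and 10.87 and 11.02 on the Arc arrays, so that the high values were those of Arc alone. *Lhx2* (0.57) and *Vim* (1.21), the filament vimentin shared by ependyma and astrocytes, were the higher ones. Neither was called higher than in Arc, and *Lhx2* stood at 8.91 in Arc against 7.62 in MPA. Of 14 choroid plexus genes, only the clotting factor *F5* (0.42) was called, and *Ttr*, the most abundant transcript of that tissue, differed by -0.21 (adjusted p = 0.904). Of 14 leptomeningeal genes, 9 were lower and none higher, again through Arc, where the median difference was -1.82 compared with 0.08 against DM and -0.08 against VMH. Decorin (*Dcn*) read 8.61 and 8.25 in MPA against 8.07 to 12.00 on the 6 tuberal arrays, the 2 highest of which were Arc. The anterior pituitary hormone genes *Cga* and *Tshb* were lower, with differences of -1.49 and -0.93, and here too the Arc arrays held the high values (10.79 and 10.79 for *Cga*, against at most 6.78 on the other 6 arrays). The part of meningeal, tanycyte and pituitary RNA on the Arc arrays in the other differences from Arc was not tested.

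Transcripts of oligodendrocytes were lower in MPA. Of 16 listed genes, 14 were lower and none higher, with a median of -0.67 (of all probe sets, 2.94% were lower). *Mal*, a proteolipid of myelin, read 9.14 and 8.59 on the MPA arrays, 10.61 and 10.73 on the DM arrays, 9.30 and 9.48 on the VMH arrays and 10.15 and 10.30 on the Arc arrays. The MPA arrays lay below all others but within 0.2 of a VMH array, and the same held for *Mobp* (10.05 and 9.40 in MPA against 10.12 to 11.55 on the 6 tuberal arrays). The claudin of myelin *Cldn11* was lower by 1.50 ± 0.21 (adjusted p = 2.24e-07). The difference depended on the region compared: 14 of 16 genes were lower than in DM and 11 than in Arc, but only 1 than in VMH (9.26%, 5.22% and 3.03% of all probe sets), the region of the same sampling period. The median level of the 16 was 8.48 and 8.53 on the MPA arrays, 8.60 and 8.77 in VMH, 9.05 and 8.99 in Arc, and 9.13 and 9.44 in DM. The part of sampling period and of myelinated tracts in the punches in this result was not tested. Astrocyte genes were higher for 4 of 14 (4.15% of all probe sets), among them the water channel *Aqp4* (0.87) and *Mlc1* (0.45). Against DM 3 were higher and 3 lower (8.47% and 9.26% of all probe sets). Against VMH 5 were higher and none lower (6.51% and 3.03%). None was called in either direction against Arc, where *Mlc1* stood at 11.43, as in MPA. Lower were 2 of 12 microglial and 2 of 11 endothelial genes (2.94% of all probe sets). Against Arc 7 microglial and 2 endothelial genes were lower (5.22% of all probe sets). Against DM 1 endothelial and no microglial gene was lower, and against VMH none of either. Of 12 pan-neuronal genes, 3 were lower, *Nefm* (-0.51), *Syn1* (-0.39) and *Nefl* (-0.37), and the median was -0.08. This median joined opposite directions. Lower were 8 than in DM (median -0.44) and 4 than in VMH (-0.24), as 9.26% and 3.03% of all probe sets were. Higher were 7 than in Arc (median 0.38), as 5.49% of all probe sets were.

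Among neuronal genes, regulators of cell identity were found both higher and lower in MPA. Of 19 transcription factor genes listed for the preoptic area and the subpallium, 9 were higher and 4 lower (of all probe sets, 4.15% and 2.94%). *Zic1*, a zinc finger factor of the front of the neural plate, read 10.83 and 11.05 on the MPA arrays, 7.06 and 6.58 on the DM arrays, 5.90 and 6.08 on the VMH arrays and 6.21 and 6.74 on the Arc arrays on 1 of its 2 probe sets. No tuberal array reached within 3 units of MPA, and the difference of 4.51 ± 0.41 (adjusted p = 7.28e-13) is a fold change of 22.8, the largest of any named gene higher in MPA. Its second probe set gave 3.55 ± 0.36. *Zic1* was not particular to MPA within the hypothalamus, since on that probe set MPA ranked 13 among the 48 regions and the suprachiasmatic nucleus (11.04) and the ventral subparaventricular zone (11.19) stood at least as high. Its relatives *Zic5* (1.90 ± 0.17) and *Zic4* (0.67 ± 0.12) were higher too.

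The distal-less genes, which specify GABAergic neurons of the forebrain, rose together. *Dlx1* read 10.58 and 10.47 on the MPA arrays, 9.56 and 9.25 on the DM arrays, 7.54 and 7.87 on the VMH arrays and 9.16 and 9.09 on the Arc arrays, with VMH lowest, and was higher in MPA by 1.78 ± 0.15 (adjusted p = 9.85e-14). *Dlx2*, *Dlx6* and *Dlx5* were higher by 1.38 ± 0.13, 1.27 ± 0.19 and 0.73 ± 0.12, and for none of the 4 did an MPA array overlap a tuberal array. In the ventral subparaventricular zone *Dlx2* (8.85), *Dlx6* (8.16) and *Dlx5* (8.48) stood above their MPA levels (8.70, 7.83 and 7.89), but *Dlx1* (10.03) did not. *Vax1* (1.15 ± 0.10), a homeobox factor of the ventral forebrain, and *Lhx8* (1.37 ± 0.15), a LIM homeobox factor of cholinergic neurons, were separated as well, *Lhx8* with 6.05 and 6.00 in MPA against 4.52 to 4.79 on the 6 tuberal arrays. The level of *Lhx8* in the lateral hypothalamus was higher still, at 9.33. The 4 lower genes of this list were *Foxp2* (-1.11), *Satb1* (-1.11), *Bcl11b* (-0.98) and *Isl1* (-0.90).

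Of 20 regulators listed for the tuberal hypothalamus, 6 were lower and 3 higher (2.94% and 4.15% of all probe sets). *Tbx3*, a T-box factor of arcuate neurons, read 6.36 and 6.11 on the MPA arrays, 6.84 and 6.99 on the DM arrays, 7.79 and 7.69 on the VMH arrays and 10.32 and 10.27 on the Arc arrays. The values rose from MPA through DM and VMH to Arc, MPA was the lowest of all 48 regions, and the mean difference was -2.09 ± 0.15 (adjusted p = 1.55e-16), although only 2 of its 5 probe sets were called. *Fezf1* (-1.25), *Nr0b1* (-0.88) and *Nr5a1* (-0.68) were lower mainly through VMH, where they marked the nucleus, and the MPA mean was not below that of DM, although *Nr0b1* was raised in Arc as well (6.52 against 5.56 in MPA). *Nkx2-2* was lower (-1.09) than in DM and VMH, but its MPA values (7.23 and 7.17) overlapped those of Arc (7.30 and 7.17). *Prox1* was the last of the lower genes (-0.63). For *Nkx2-4* the probe sets disagreed, with -1.40 (adjusted p = 3.99e-16) on 1 and 0.00 on the one of higher mean. The homeobox genes *Hmx2* and *Hmx3* were higher by 0.46 and 0.51, with MPA and DM high and VMH and Arc low, and *Insm2* was higher by 0.74.

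Neuropeptide genes differed in both directions. Of 40 measured, 12 were higher and 10 lower in MPA, where 4.15% and 2.94% of all probe sets were, and for 11 of these 22 the MPA and tuberal arrays overlapped. *Nts*, the precursor of neurotensin, read 11.58 and 11.58 on the MPA arrays, 8.50 and 8.77 on the DM arrays, 8.20 and 8.60 on the VMH arrays and 7.99 and 7.96 on the Arc arrays. It was higher than in each tuberal region by a like amount, at 2.94, 3.18 and 3.60 from DM, VMH and Arc and 3.24 ± 0.21 from their mean (adjusted p = 1.81e-18, 9.46-fold), and MPA held its highest level of 48 regions, followed by the lateral hypothalamus at 10.88. *Trh*, the precursor of thyrotropin-releasing hormone, read 10.95 and 10.99 on the MPA arrays, 10.34 and 9.92 on the DM arrays, 7.88 and 8.22 on the VMH arrays and 7.92 and 7.61 on the Arc arrays. MPA and DM were high and the other regions low, so that the difference was 0.84 ± 0.16 from DM and 3.20 ± 0.16 from Arc, and the MPA level of 10.97 exceeded that of the paraventricular nucleus (10.22), where hypophysiotropic *Trh* neurons are known to lie.

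Hormones of magnocellular neurons were also high in MPA. *Oxt*, the precursor of oxytocin, read 14.26 and 14.18 on the MPA arrays, 10.13 and 10.05 on the DM arrays, 11.37 and 10.75 on the VMH arrays and 12.96 and 13.12 on the Arc arrays. The MPA arrays lay above all tuberal arrays (2.82 ± 0.15, adjusted p = 1.15e-21) and near the paraventricular (14.56) and supraoptic nuclei (14.12). *Avp*, the precursor of vasopressin, read 12.10 and 12.50 on the MPA arrays, 7.12 and 7.05 on the DM arrays, 9.83 and 10.20 on the VMH arrays and 12.81 and 13.32 on the Arc arrays, and its direction depended on the region, since MPA exceeded DM by 5.21 and VMH by 2.28 but was below Arc (-0.77, adjusted p = 0.00804). *Sst*, the precursor of somatostatin, was higher by 1.31 ± 0.24 and at its highest of the 48 regions in MPA (13.08), although the difference from Arc was 0.41 ± 0.29 (adjusted p = 0.458). *Gal*, the precursor of galanin, which marks MPA neurons active in parental care, was 11.31 and 11.09 in MPA and 11.33 and 11.04 in DM, a difference of 0.02 ± 0.14 (adjusted p = 0.964), and exceeded VMH by 2.06. *Crh* was likewise shared with DM (0.12) and higher than in VMH and Arc by 2.84 and 2.91. *Pnoc* (1.01), the precursor of nociceptin, *Nmb* (0.57) and *Nppc* (0.54) were higher by less.

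Genes of the neighbouring suprachiasmatic nucleus, the circadian pacemaker, were present among the higher peptides. Of 9 genes listed for it, 6 were higher and none lower (median 0.85), 3 of them separated, compared with 4.15% higher and 0.486% separated and higher among all probe sets. *Prok2*, a secreted clock output, read 7.54 and 7.74 in MPA against 5.78 to 6.30 on the 6 tuberal arrays (1.58 ± 0.10, adjusted p = 2.84e-18), and stood at 7.67 in the suprachiasmatic nucleus itself. *Vip* differed between the 2 MPA arrays, 7.96 and 6.60, against 5.78 to 6.34 in the tuberal arrays and 13.74 in the suprachiasmatic nucleus, and its difference of 1.23 ± 0.27 had an adjusted p of 0.00112. *Rgs16* and *Rasd1* were higher by 1.25 and 0.85, while *Lhx1*, a factor of that nucleus (9.18 there), was 6.48 in MPA and differed by 0.07. Whether RNA of that nucleus contributed to the MPA arrays was not tested.

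The lower peptides were those of the tuberal nuclei and their surroundings. *Pmch* read 6.92 and 6.62 on the MPA arrays, 13.92 and 14.02 on the DM arrays, 12.96 and 12.56 on the VMH arrays and 7.82 and 7.43 on the Arc arrays. The difference of -4.68 ± 0.31 (adjusted p = 2.81e-18) was the largest downward one of any named gene, and was made of -7.20 from DM, -5.99 from VMH and -0.86 from Arc, the last not called (adjusted p = 0.153). *Tac1*, the precursor of substance P, read 9.48 and 9.28 in MPA against 10.00 to 12.53 on the 6 tuberal arrays (-1.95 ± 0.27 from their mean, adjusted p = 1.65e-07), and was lower than in DM (-2.32) and VMH (-2.72), whereas the difference from Arc was not called (-0.79 ± 0.33, adjusted p = 0.118). *Hcrt* was lower as well (-1.60 ± 0.12), mainly through DM. *Pomc* (-2.41), *Npy* (-1.55) and *Ghrh* (-0.88), which act on feeding and growth, had differences from Arc of -4.65, -4.18 and -2.18 with means no lower than in DM, and *Pomc* was also lower than in VMH (-2.86). *Npvf* (-1.48) and *Grp* (-0.64) were lower mainly through DM, *Tac2* (-1.39) through Arc and DM, and *Cartpt* (-0.68) through Arc. Among the 18 that were not called, *Penk* differed by 0.63 and *Adcyap1* by -0.01, the latter being lower in MPA than in VMH (-1.30) and higher than in Arc (1.73).

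**Figure D4:**
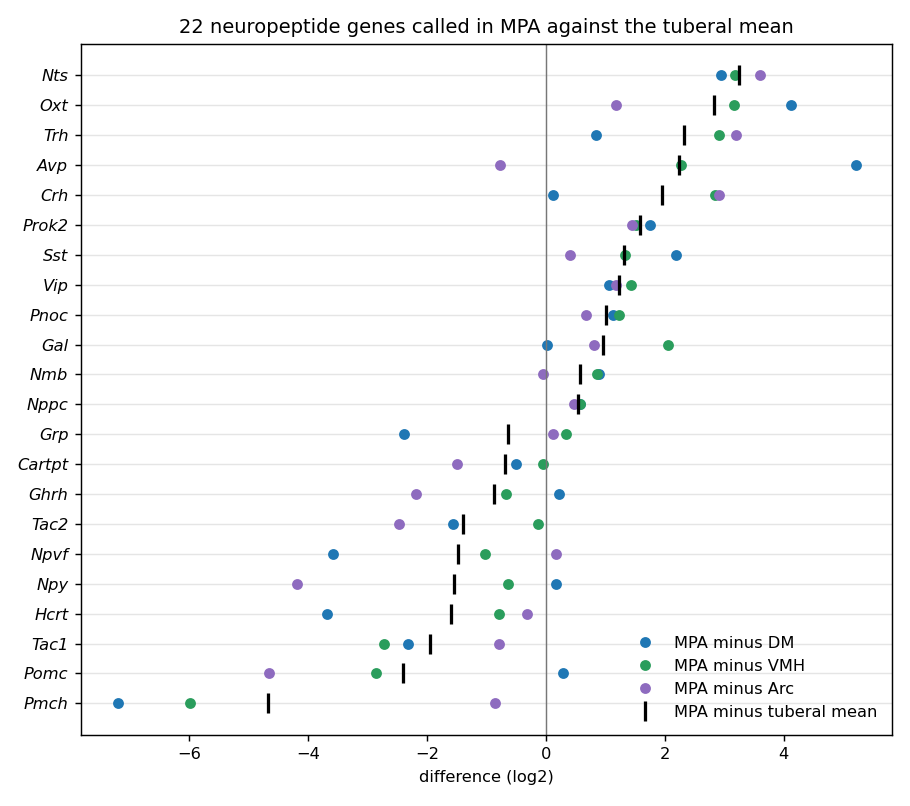
Difference in log2 value between MPA and DM (blue), VMH (green) and Arc (purple) for the 22 neuropeptide genes that were called against the tuberal mean (black bar), ordered by the difference from that mean. The points of *Nts* lie together between 2.94 and 3.60, whereas those of *Avp* spread from -0.77 to 5.21 and those of *Pmch* from -7.20 to -0.86.

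Of 11 genes listed for steroid action and parenting, 3 were higher, 1 was lower and 7 were not called (4.15% and 2.94% of all probe sets were higher and lower). *Esr1*, oestrogen receptor alpha, was higher on all 3 of its probe sets. On the brightest it read 10.29 and 9.95 on the MPA arrays, 7.99 and 7.80 on the DM arrays, 8.04 and 7.76 on the VMH arrays and 10.39 and 10.39 on the Arc arrays, so that MPA and Arc overlapped (-0.27 ± 0.22, adjusted p = 0.527) and both DM and VMH were lower on all 4 of their arrays. On the probe set with the largest difference MPA lay above Arc as well (0.75 ± 0.19, adjusted p = 0.00579). *Pgr*, the progesterone receptor, was at its highest of 48 regions in MPA, with 10.54 and 10.36 in MPA against 9.18 to 10.13 on the 6 tuberal arrays (0.73 ± 0.09), but only 1 of its 3 probe sets was called. *Moxd1*, a monooxygenase-like gene that marks sexually dimorphic preoptic neurons, was separated (1.01 ± 0.15), and *Esr2* (0.23) and *Calcr* (0.23) were not called. The oxytocin receptor *Oxtr* was lower by a small amount (-0.23 ± 0.07, adjusted p = 0.0477).

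Of 51 receptors for peptides and hormones, 6 were higher, 5 lower and 40 not called (4.15% and 2.94% of all probe sets were higher and lower). *Cckar*, the cholecystokinin receptor of type A, stood out with 7.58 and 8.03 in MPA against 5.41 to 6.49 on the 6 tuberal arrays (1.72 ± 0.14, adjusted p = 1.13e-14), its highest level of 48 regions. *Prokr2* (0.81), the receptor of the product of *Prok2*, *Trhr* (0.66), *Ramp1* (0.51) and *Hcrtr1* (0.49) were higher, and *Ntsr1* (-0.59), *Npy1r* (-0.44), *Galr2* (-0.41), *Sstr4* (-0.56) and *Lepr* (-0.33), the leptin receptor, were lower. *Cckbr*, the other cholecystokinin receptor, was called higher (0.33) although it was lower than in VMH (-0.48). Of 16 genes for temperature sensing and fever, only *Ptger4* (0.38), a receptor for prostaglandin E2, was higher, and *Ptgds* and *Ptger2* (-0.52) were lower. None of the 16, *Ptger4* included, was called higher than in DM or VMH (8.47% and 6.51% of all probe sets), and 2 were higher than in Arc (5.49%). *Ptgds*, which makes prostaglandin D2 and is known from leptomeninges and oligodendrocytes, read 11.68 and 11.28 in MPA against 11.90 to 14.36 on the 6 tuberal arrays, and both of its probe sets were lower (-1.49 and -1.71). The Arc arrays, on which leptomeningeal genes were high, carried most of this, with differences of -2.80 and -3.66 from Arc and -0.92 and -0.62 from DM, the last not called (adjusted p = 0.12). *Ptger3*, the receptor known for fever in this area, was 5.95 in MPA and 5.81 in the tuberal mean (0.14 ± 0.10, adjusted p = 0.488).

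Of 6 genes of GABA neurons, 2 were higher, 1 was lower and 3 were not called. Of all probe sets, 4.15% were higher and 2.94% lower. Against VMH alone 3 of the 6 were higher (6.51% of all probe sets). *Gad2*, a GABA-synthesising enzyme, read 11.98 and 11.95 on the MPA arrays, 11.36 and 11.20 on the DM arrays, 9.79 and 9.93 on the VMH arrays and 11.13 and 11.35 on the Arc arrays, with MPA above every tuberal array and VMH lowest (1.17 ± 0.19, adjusted p = 4.72e-06). *Slc32a1*, the vesicular GABA transporter, differed by 2.14 from VMH and 0.25 from DM (0.99 ± 0.21 from the mean). *Gad1*, the other GABA-synthesising enzyme, was not called (0.45 ± 0.20, adjusted p = 0.208) although it exceeded VMH by 1.49, and the GABA transporter *Slc6a13*, also known from meninges, was lower (-0.43) through Arc (-1.47). The vesicular glutamate transporter *Slc17a6* was lower than in DM (-1.33) and VMH (-1.18) and higher than in Arc (0.76), and was not called against their mean (-0.58 ± 0.21, adjusted p = 0.0787). Of 15 monoamine and cholinergic genes, *Th*, tyrosine hydroxylase, was higher (0.55) and the dopamine transporter *Slc6a3* lower (-0.55), beside the same shares of all probe sets. Neither held against every region, since none of the 15 was called higher than in DM or lower than in VMH (8.47% and 3.03% of all probe sets). Of 12 immediate early genes, *Egr1* alone was called, and was lower (-0.95 ± 0.15, adjusted p = 3.88e-06), as 2.94% of all probe sets were.

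Ion channels, transmitter receptors and guidance genes were counted against the 4.15% of all probe sets that were higher and the 2.94% that were lower. Of 81 potassium channel genes, 3 were higher and 8 lower, among them *Kcna1* (-0.96), a subunit of axons, and of 35 voltage-gated sodium and calcium channel genes 1 was higher and 3 lower. Of 20 subunits of GABA-A and glycine receptors, *Gabra5* (-0.70) and *Glra1* (-0.79) were lower, and of 16 subunits of ionotropic glutamate receptors the kainate receptor subunit *Grik1* was separated and higher, with 8.31 and 8.33 in MPA against 6.23 to 7.65 on the 6 tuberal arrays (1.20 ± 0.13, adjusted p = 6.10e-10), and *Grin2d* lower (-0.38). The serotonin receptor *Htr2c* was higher (0.86 ± 0.26), alone among 13, but its level in MPA (10.51) was below that in DM (11.25). The dopamine receptor *Drd2* was lower (-0.60), alone among 6 dopamine and adrenergic receptors. Of 18 nicotinic and muscarinic subunits, *Chrna7* was higher (0.39) and *Chrna4* lower (-0.58). Here too *Chrna7* was no higher in MPA (8.79) than in DM (8.98), and *Chrna4* no lower in MPA (7.94) than in Arc (7.86). Of 33 cadherins, *Cdh13* (-0.76) and *Cdh22* (-0.69) were lower, and of 52 semaphorins, ephrins and their receptors 6 were higher and 7 lower, including 3 receptors for ephrins, *Epha5* (-0.96), *Epha4* (-0.77) and *Epha7* (-0.52). *Epha4* and *Glra1* were likewise no lower in MPA (7.81 and 6.52) than in Arc (7.70 and 6.34). *Drd2*, *Grin2d* and *Epha7* were lower mainly through DM (8.84, 9.75 and 7.96). They stood at 7.47, 8.79 and 6.72 in MPA, 7.65, 8.89 and 6.92 in VMH, and 7.72, 8.88 and 6.86 in Arc. Of 8 genes each listed for striatal projection neurons and for the thalamus, 1 was higher and 1 lower, and neither of the 2 measured blood genes was called.

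Outside these lists, the largest differences of separated genes that did not follow the ependymal score were also noted. *Adamts20*, a secreted protease, was higher by 2.67 ± 0.18 and highest of 48 regions in MPA, though its r with the ependymal score (0.56) lay close to the limit of the group, as did that of *Vit* (1.71, r = 0.54). *Pltp*, a phospholipid transfer protein (1.87), the chemokine receptor *Cxcr4* (1.76), *C1ql2*, a secreted synaptic protein (1.65), *2900052N01Rik* (1.61) and *Ezr*, which links actin to the cell membrane (1.59), were higher. Among the lower genes, *Plagl1*, an imprinted zinc finger factor, differed by -1.72 ± 0.14 (adjusted p = 1.60e-14), with 7.07 and 7.13 in MPA against 7.51 to 9.74 on the 6 tuberal arrays. *Deptor*, an inhibitor of mTOR (-1.55), *Nrgn*, a calmodulin-binding protein of dendrites (-1.46), the secreted ligand *Wnt5a* (-1.42) and *Doc2b*, a sensor of vesicle release (-1.31), were lower as well, and *Wnt5a* was below every tuberal array with 5.57 and 5.85 in MPA against 6.79 to 7.55 on the 6 tuberal arrays.

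**Figure D5:**
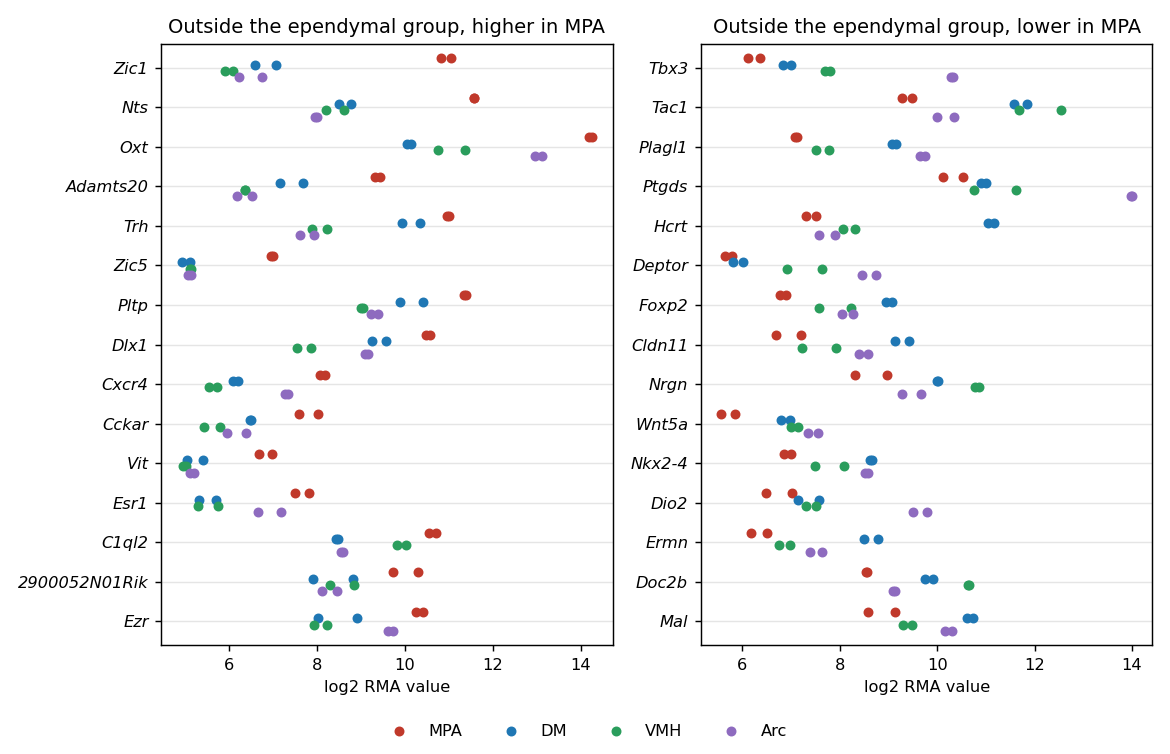
Log2 RMA value on each of the 8 arrays of the 15 named genes outside the ependymal group with the largest differences among separated probe sets that were higher (left) and lower (right) in MPA, with the top pair of points in each row for MPA (red). On the left the MPA points clear all tuberal points by the most for *Zic1* and *Nts*, and on the right the distance from MPA to the nearest tuberal region is small for *Deptor*, *Cldn11* and *Mal* although their mean differences are 1.23 to 1.55 in size.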

How the data were processed

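Gene expression was measured with 2 Affymetrix mouse genome arrays for each of 51 central nervous system regions, and the arrays were grouped by the region in their titles. The values deposited by the authors are log2 expression values summarised and normalised by RMA, and they were used as deposited, so that raw intensities and background were not re-derived. No sequencing depth applies, and the number of arrays limits the precision. Of 45101 rows, 64 controls were left out. Of the remaining probe sets, 34945 name 1 gene in the platform annotation, 932 several and 9160 none, and only the first were named. A small number of items is not reported here.

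A linear model with 1 coefficient for each of 48 regions was fitted to 96 arrays with limma 3.58.1 in R 4.3.3, leaving out retina, pituitary and pineal gland, which differ most from brain tissue, and giving 48 residual degrees of freedom (prior 6.63). MPA was contrasted with the mean of DM, VMH and Arc, p-values were moderated by eBayes and adjusted by Benjamini-Hochberg over all 45037 probe sets, and an adjusted p under 0.05 is termed called. SE is the standard error of the contrast. Tested on simulated data of this contrast with 8000 probe sets, the fit called 80% of 50 shifts of 0.5, all shifts of 1 or more, and 11 of 7800 without a shift. Apart from the shifts the simulated regions were level, whereas DM, VMH and Arc differ in the data. These rates therefore cover only the spread between arrays of a region. Tables and plots were made in Python 3.11.15.

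Genes of the lists used (ependymal, tanycyte, choroid plexus, leptomeningeal, endothelial, oligodendrocyte, astrocyte, microglia, blood, anterior pituitary, neuron, striatal, thalamic, suprachiasmatic, immediate early, regulators, peptides, receptors, transmitters, channels and guidance molecules) were represented by their probe set of highest mean over the 96 arrays. In addition, the 15 largest differences in each direction among separated probe sets outside the ependymal group and the 12 largest within it were named, with 1 probe set per gene, the one with the largest difference, so that for *Zic1*, *Esr1*, *Foxp2*, *Dio2*, *Ptgds*, *Ermn*, *Nkx2-4* and *Dnaic2* the plots and the lists show different probe sets. Of 210 called list members, 98 had several probe sets. Every probe set was called the same way for 36 of these, and for none were probe sets called both ways. The members and lists were chosen with earlier results of these data known. Alternatives changed the arrays fitted, the tuberal group, the variance model, the normalisation, a filter on low values and the arrays or regions included.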

Additional observations from a re-analysis of the deposited data

How the results depend on the processing

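The counts moved most with the unit of the tuberal group, the second MPA array and the comparison with VMH only. With the 8 arrays alone, 1150 probe sets were higher and 882 lower. With the 6 tuberal arrays as 1 group, 223 were higher and 11 lower, 144 and 1 of them separated (114 of the ependymal group and 30 others higher, 1 other and 0 of the ependymal group lower), 152 of the ependymal group were called higher, and 25 of the 44 genes named for their size and 165 of the 210 called list members kept their direction without passing the threshold. Without 1 array in turn, between 992 and 2088 were higher and between 408 and 1424 lower, with the lowest counts without the second MPA array, and 1209 and 807 without the first. The separated and lower probe sets numbered 44 to 81, the latter without the first MPA array, with 43 to 79 of them outside the ependymal group and 1 to 3 within it. Without VMH, 2391 were lower, with 98 separated and lower (95 outside the ependymal group). Without Arc, 93 were separated and lower (91 outside the ependymal group) and 148 others separated and higher. Without DM, 4 of the ependymal group were separated and lower. Against VMH only, 2930 were higher, 400 separated and higher (235 outside the ependymal group), and 155 separated and lower (148 outside it and 7 within). With a limit of r of 0.5 or 0.7 in place of 0.6, the ependymal group held 5 or 1 separated and lower probe sets.

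Of the 210 called list members, 10 turned direction and 59 lost the call against VMH only, 6 and 32 did so without Arc, 1 and 33 without DM, and 2 and 24 without VMH. Among the genes named here, *Npy1r* (0.13), *Dcn* (0.12) and *Slc6a13* (0.0865) had differences above 0 without Arc, *Grp* (0.23) without DM and *Fezf1* (0.0665) without VMH, and against VMH only *Grp* (0.34) and *Dcn* (0.21) did, none of them called, while *Cckbr* was lower (-0.48). The share of called probe sets that were higher was 58.5% as reported, 54.3% after cyclic loess normalisation and 50.6% without VMH. The fit of the 24 hypothalamic arrays, the trend in variance and the filter on low values kept each of these counts within 1.5 times.

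The correlations of the deviations of same-numbered arrays from their region means ranged from -0.47 to 0.16 over the 6 pairs of regions, so the numbers were not taken to pair all 4 regions. Only MPA and VMH have first arrays of the same days, and their correlation was 0.16. The replicate block gave 1901 higher and 1340 lower and changed no call of a list member. Against VMH only with the replicate block, an alternative chosen after seeing the data, 2944 were higher, with 400 and 155 separated (235 and 148 outside the ependymal group, 7 lower within it). The cause of these shifts was not tested.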
